A study of Mus with 96 samples.

Results

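The Hep-Bmal1KO livers of this study were compared between the 2 diets, that is, between livers in which the hepatocyte clock had been deleted and the feeding regimen was the only labelled difference. Members were taken by genotype label: 48 of the 96 libraries came from Hep-Bmal1KO mice, 24 on normal chow (NC) and 24 on cdHFD, a high-fat diet without choline. Each library held the liver RNA of one mouse, and each diet had 4 mice, 2 male and 2 female, at each of 6 zeitgeber times (ZT, hours after lights on), namely ZT2, ZT6, ZT10, ZT14, ZT18 and ZT22. Hep-Bmal1KO mice were Alb-Cre/+ Bmal1 flx/flx and their Hep-Bmal1WT littermates were Alb +/+ Bmal1 flx/flx, all on the C57BL/6J background. Mice were 8 to 10 weeks old when they were placed on NC (27% protein, 14% fat, 59% carbohydrate) or cdHFD (9% protein, 60% fat including 2% cholesterol, 31% carbohydrate, 0.17% methionine) for 2 weeks. Cre was driven by the albumin promoter to delete Bmal1 in hepatocytes. Macrophages, stellate, endothelial and other cells of the same livers were not targeted, and their Bmal1 was not checked here.

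The circadian clock is a transcriptional feedback loop in which BMAL1 and CLOCK drive the Per, Cry and Nr1d genes, whose products then repress their own activators. In the liver this loop times bile acid, sterol, fatty acid and amino acid metabolism, and feeding, body temperature and glucocorticoids impose rhythms of their own from outside the hepatocyte. Diets low in choline and rich in fat and cholesterol are used to produce steatohepatitis in mice, since phosphatidylcholine, which is needed to export triglyceride, is made from choline or by methylation with methionine as the donor. The comparison therefore asks what a steatohepatitis diet changes in a liver whose hepatocytes lack the positive arm of the clock, and which daily rhythms it removes, adds or moves there.

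The counts were 3′ tags of BRB-seq, a bulk method that barcodes each sample before pooling, and library totals ran from 4441385 to 8599309 on NC and from 4243905 to 9718615 on cdHFD. Of 55487 annotated genes, 15548 had a summed count of at least 100 over the 96 libraries and were tested. The sources used here do not state where the 3′ tag of Bmal1 (listed as Arntl) lies relative to the deleted part. Its level alone was therefore not used to check the genotype. Over the core clock genes and also over the 20 genes that best separated the genotypes at the other ZTs, 3 of the 48 libraries stood nearer to Hep-Bmal1WT than to their own group (NC at ZT6 replicate 4, NC at ZT10 replicate 3 and cdHFD at ZT14 replicate 1), and 4 libraries labelled Hep-Bmal1WT stood nearer to Hep-Bmal1KO. The 3 are called the discordant libraries here, and results that rest on them are given with and without them. One library labelled female (cdHFD at ZT10 replicate 4) had neither Xist nor Y-linked RNA, and the other 47 matched their labelled sex. All NC libraries lay in columns 7 to 9 of the library plate and all cdHFD libraries in columns 10 to 12. Diet and plate column therefore cannot be told apart. Within each diet ZT2 and ZT6 shared a column, ZT10 and ZT14 the next, and ZT18 and ZT22 the last. Differences between times in separate columns, which enter every rhythm and time result below, cannot be told apart from column either.

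The diet changed the level of most genes. Of 15548 genes, 5031 (32.4%) were higher on cdHFD and 4600 (29.6%) were lower (edgeR quasi-likelihood test with ZT as a 6-level factor, Benjamini-Hochberg adjusted p under 0.05), together 61.9%, and 61.7% without the discordant libraries. With a log2 fold change of 1 or more in size, 2506 genes (16.1%) were higher and 1133 (7.29%) were lower. The split between higher and lower depended on scaling. With library totals in place of TMM factors 10132 genes were higher and 1656 lower, the higher ones rose from 52.2% to 86% of all calls, and the median log2 difference of all genes moved from 0.02 to 0.50. List medians below are therefore to be read against an all-gene median of 0.02.

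The gene highest in the ranking by p among those that rose was Mmp12, the macrophage elastase (ENSMUSG00000049723; GRCm38, chromosome 9, 7344397 to 7360461). Mmp12 ranged from 0.672 to 3.46 CPM, counts scaled to one library size with TMM factors, on NC, with a median of 2.00, and from 94.6 to 270 CPM on cdHFD, with a median of 174. The ranges did not overlap at any ZT, and the log2 fold change was 6.29 ± 0.13 (SE, 24 libraries per diet, adjusted p = 1.3e-39). Among genes that fell the first was Tm7sf2, a sterol reductase of cholesterol synthesis (ENSMUSG00000024799; chromosome 19, 6062821 to 6067850), which went from 141, 213 and 271 CPM (lowest, median, highest) on NC to 4.21, 6.82 and 12.7 CPM on cdHFD. Again no NC library overlapped a cdHFD library, and the log2 fold change was -4.88 ± 0.09 (adjusted p = 1.8e-40). The plot of list members shows where the lists of each function lie between these ends.

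**Figure D1:**
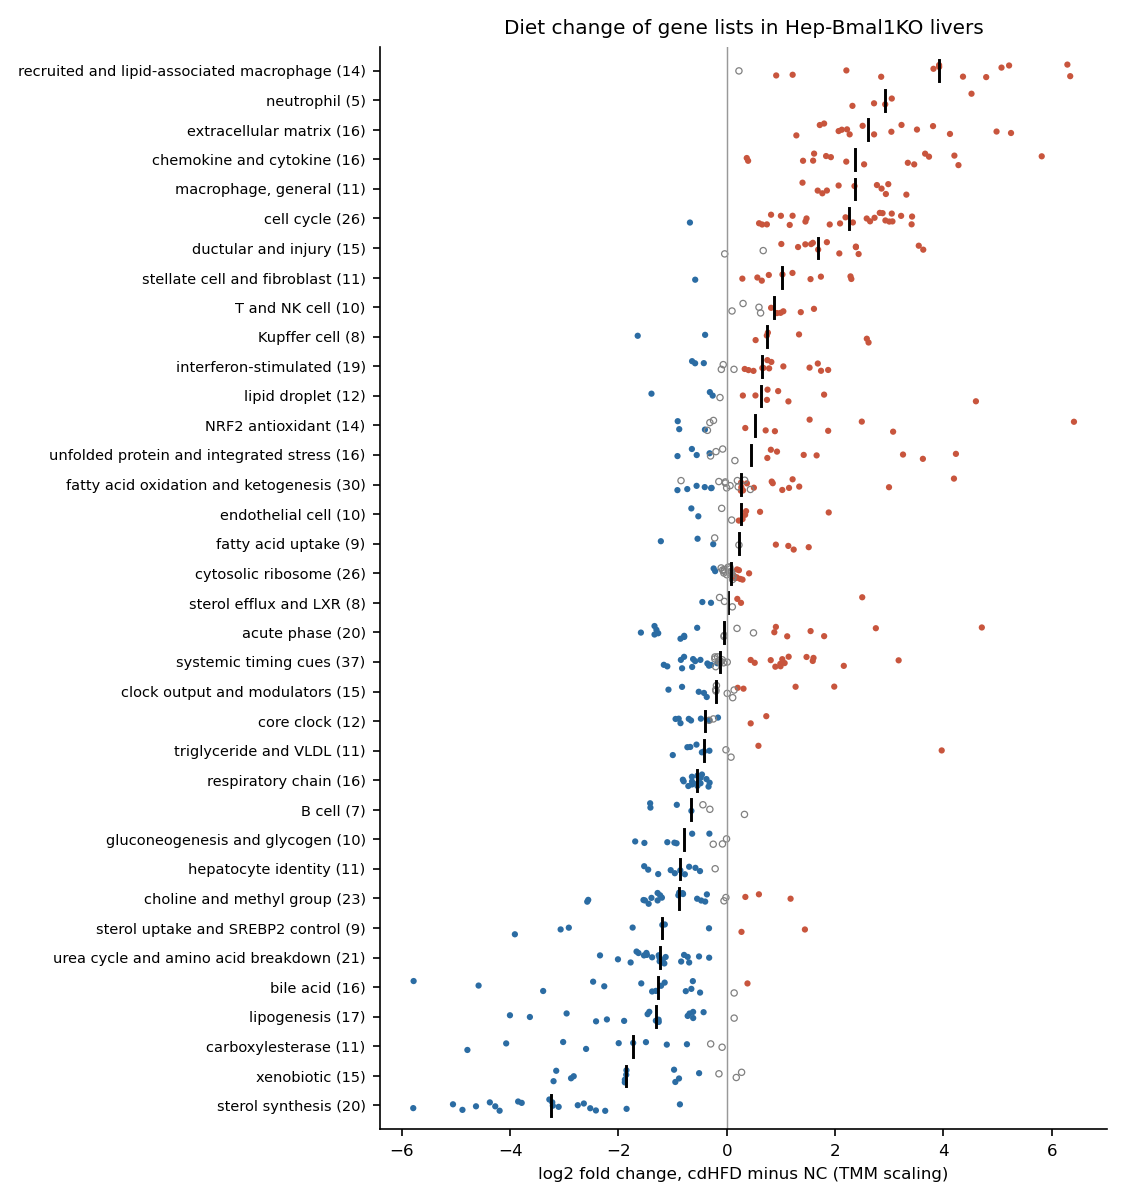
Log2 fold change (cdHFD minus NC, x axis) of every tested member of 36 gene lists (rows, ordered by their median, black bar); red points are genes called higher, blue points genes called lower and open grey points genes that did not pass adjusted p under 0.05. Sterol synthesis lies at the low end with a median of -3.25 and the recruited and lipid-associated macrophage list at the high end with 3.92.

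Genes of cholesterol synthesis fell together and furthest of all metabolic lists. All 20 members were lower on cdHFD, with a median log2 fold change of -3.25, 9 of 9 in the mevalonate pathway and 11 of 11 between squalene and cholesterol. Their level was lower at all 6 ZTs in every case. The summed CPM of the mevalonate genes ran from 1019 to 3258 on NC, with a median of 2061, and from 142 to 297 on cdHFD, with a median of 182. Sqle, the squalene epoxidase, went from 50.4, 134 and 214 CPM to 1.3, 3.64 and 9.6 CPM, a log2 fold change of -5.06 ± 0.13. Msmo1, the C4-methylsterol oxidase, went from 116, 345 and 560 CPM to 7.80, 15.8 and 25.7 CPM (-4.37 ± 0.11). Neither gene had an NC library within the cdHFD range.

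Sterol uptake and its control moved less evenly. Of 9 tested members 7 were lower and 2 higher, with a median of -1.19. Insig1, the sterol-sensing retention factor of SREBP, fell by 3.07 on the log2 scale. The 2 that rose were Mylip, a ubiquitin ligase induced by LXR (1.44 ± 0.11), and Npc1 (0.27 ± 0.10), a lysosomal cholesterol exporter. In this list 6 fell and 2 rose with library totals (median -0.71). Of 8 genes of sterol efflux and LXR, 3 rose and 2 fell, and with library totals 6 rose and none fell. The cholesterol exporter Abcg1 went from 4.34, 7.53 and 12.5 CPM to 26.6, 40.8 and 72.7 CPM, without overlap (2.50 ± 0.11), while Abca1, a transporter with a related role, changed by 0.26 ± 0.06.

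Bile acid genes were mostly lower, 14 of 16 with a median of -1.26 and 1 higher (Abcb4, the phosphatidylcholine export pump). All 8 synthesis genes fell, among them Cyp8b1, the 12-alpha-hydroxylase (-3.39 ± 0.25), and Cyp7b1 of the alternative pathway (-4.58 ± 0.49), whereas Cyp7a1, the rate-limiting enzyme, moved by -0.63 ± 0.19. Slc10a1, the bile acid importer NTCP, went from 415, 578 and 718 CPM to 29.1, 108 and 204 CPM (-2.47 ± 0.13), and the groups did not overlap. Abcb11, the bile salt export pump, fell by 1.15 on the log2 scale. Scaled by library totals, 12 of the 16 bile acid genes fell and 2 rose, with a median of -0.79.

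Fatty acid synthesis was lower and lipid storage higher. Of 17 lipogenesis genes 16 fell, with a median of -1.31, and Fads2, a desaturase, was the one that did not pass. Fasn, fatty acid synthase, ranged from 205 to 1011 CPM with a median of 392 on NC and from 21.9 to 394 CPM with a median of 60.4 on cdHFD, so that the ranges overlapped, and its log2 fold change was -2.41 ± 0.20. Acly, which makes cytosolic acetyl-CoA from citrate, fell by 2.21. Scaled by library totals, 13 of the 17 fell and 1 rose (median -0.84). Of 12 lipid droplet genes 8 rose and 3 fell (Cideb, Fitm1 and Fitm2, of which Cideb was higher with library totals, at 0.17), with a median of 0.64. On that scaling 10 of the 12 rose and 1 fell. Cidec, the protein that fuses droplets, rose from 0.230, 1.74 and 7.83 CPM to 23.5, 45.4 and 93.6 CPM (4.60 ± 0.20), and Plin2, the main coat protein of hepatocyte droplets, by 0.95 ± 0.07.

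Lipoprotein and oxidation genes did not move one way. Among 11 triglyceride and VLDL genes 7 fell and 2 rose, and with library totals 3 fell and 4 rose. Apoa4, an apolipoprotein carried on triglyceride-rich particles, rose from 88.6, 134 and 296 CPM to 1689, 2074 and 5610 CPM (3.97 ± 0.12), while Mttp, which loads lipid onto apolipoprotein B, fell by 0.67. Of 30 genes of fatty acid oxidation and ketogenesis 14 rose and 6 fell, with a median of 0.26, and with library totals 24 rose and 1 fell. Cpt1a, the gatekeeper of mitochondrial import, rose by 0.83 ± 0.06. Fgf21, a hormone released by the liver in fasting and protein restriction, rose from 0.817, 4.18 and 16.1 CPM to 27.4, 79.6 and 286 CPM (4.19 ± 0.23).

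Genes that handle methyl groups and amino acids were lower. Of 23 choline and methyl group genes 18 fell and 3 rose, with a median of -0.88. Gnmt, which disposes of surplus S-adenosylmethionine, went from 536, 1788 and 2797 CPM to 78.2, 267 and 448 CPM without overlap (-2.56 ± 0.11). The 3 that rose were Mat2a (1.18 ± 0.07), the S-adenosylmethionine synthetase of proliferating and extrahepatic cells, Chka (0.59 ± 0.14), a choline kinase, and Mtr, methionine synthase, while the adult liver synthetase Mat1a fell by 0.81. In this list 14 fell and 5 rose with library totals (median -0.40). All 21 genes of the urea cycle and amino acid breakdown fell, with a median of -1.24, and all 21 kept that direction at the 6 ZTs. With library totals 18 fell and 1 rose (median -0.76). Otc, ornithine transcarbamylase, fell by 1.67 and Hpd, a tyrosine-degrading dioxygenase, by 1.78. Of 10 genes of glucose output 7 fell and none rose, and with library totals 5 fell and 2 rose.

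Hepatocyte and detoxification genes were lower too. Of 11 hepatocyte identity genes 10 fell (median -0.86), and of 15 P450 enzymes and xenobiotic receptors 12 fell (median -1.85). Of 11 carboxylesterases 9 fell (median -1.73), and none was higher in any of the 3 lists. With library totals 7 hepatocyte identity genes fell and 0 rose (median -0.38). On that scaling 11 P450 and receptor genes fell and 3 rose, and 9 carboxylesterases fell and 1 rose. Ces2a, a microsomal esterase, went from 417, 640 and 945 CPM to 18.5, 34.1 and 107 CPM (-4.07 ± 0.14) without overlap, and Cyp2c29 went from 268, 1437 and 2147 CPM to 40.9, 142 and 597 CPM (-3.15 ± 0.19), with overlap. P450 enzymes and carboxylesterases are families of close paralogs whose 3′ tags may share reads. Hnf4a, the transcription factor that maintains hepatocyte identity, fell by 0.77. Of 6 hepatocyte markers 5 were tested and 5 fell. The summed level of the 5 tested ran from 93490 to 233879 CPM on NC with a median of 120012. On cdHFD this sum ran from 54300 to 92624 CPM with a median of 69401. In bulk RNA, fewer hepatocytes and less of these RNAs per hepatocyte cannot be told apart.

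Respiratory chain genes shifted by a smaller and uniform amount, and the shift rested on scaling. All 16 nuclear-encoded subunits were lower (median -0.54), among them Sdha of complex II (-0.80 ± 0.05), but with library totals 2 were higher, 6 lower and the median was -0.06. Of 26 ribosomal protein genes 10 were higher and 2 lower with a median of 0.08, near that of all genes, and with library totals all 26 were higher with a median of 0.56.

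Stress genes rose in part. Of 16 genes of the unfolded protein and integrated stress responses 8 rose and 4 fell, with a median of 0.45. The risers were led by Atf3 (0.574, 3.06 and 9.55 CPM on NC, 29, 55.5 and 123 CPM on cdHFD, 4.23 ± 0.18) and Trib3 (3.62 ± 0.31), both induced through ATF4, and the 4 that fell were Hsp90b1, Xbp1, Pdia4 and Sdf2l1, which act in protein folding and its control in the endoplasmic reticulum. Library totals gave 12 of the 16 stress genes higher and 2 lower, with a median of 0.93. Of 14 NRF2-type antioxidant genes 8 rose and 3 fell, and with library totals 8 rose and 2 fell. Hmox1, heme oxygenase, rose by 2.49 ± 0.13 and Srxn1, sulfiredoxin, by 1.87 ± 0.12.

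Macrophage and inflammatory genes rose. All 11 general macrophage genes rose (median 2.36), 13 of 14 recruited and lipid-associated macrophage genes rose (median 3.92), and all 16 tested chemokine and cytokine genes rose (median 2.37). Trem2, the lipid-sensing receptor of lipid-associated macrophages, went from 0.191, 0.969 and 3.23 CPM to 25.6, 41.8 and 74.8 CPM (5.21 ± 0.16). Gpnmb, a lysosomal glycoprotein of foamy macrophages, went from 0.352, 2.07 and 3.85 CPM to 59.4, 156 and 280 CPM (6.34 ± 0.18), and Lgals3, galectin-3, from 11.4, 16.9 and 25.6 CPM to 298, 491 and 741 CPM (4.79 ± 0.10). The 3 genes were separated between diets in every library. Ccl2, which recruits monocytes, rose by 4.20 ± 0.15 and its receptor Ccr2 by 3.92 ± 0.20.

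Resident Kupffer cell genes were split, with 6 of 8 higher and 2 lower (median 0.75). Cd5l, a secreted scavenger protein, rose by 2.59 ± 0.10 and Clec4f, a lectin restricted to Kupffer cells, by 0.74 ± 0.10, whereas C6 and Cd163 fell. Scaled by library totals, 6 of the 8 genes were higher and 1 lower (median 1.23). Summed Kupffer cell markers ran from 95.5 to 300 CPM on NC (median 203) and from 516 to 1076 CPM on cdHFD (median 678), and summed lipid-associated macrophage markers from 32.7 to 141 CPM (median 91) and from 347 to 751 CPM (median 548). The part of cell number in these rises was not tested.

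Other non-parenchymal cells differed in degree. Neutrophil genes rose in 5 of 5 tested (median 2.92), and S100a8, a granule protein, went from 0.959, 4.41 and 21.3 CPM to 17.6, 47.4 and 86.5 CPM (3.05 ± 0.21). T and NK cell genes rose in 6 of 10 (median 0.87) at low levels, their summed markers running from 1.42 to 9.05 CPM on NC and from 4 to 11.8 CPM on cdHFD. B cell genes fell in 4 of 7 and rose in none, and with library totals 2 fell and 1 rose, although the sum of the 3 B cell markers overlapped almost wholly (1.42 to 6.65 and 1.99 to 7.40 CPM). Sinusoidal endothelial genes rose in 6 of 10 and fell in 2, with a median of 0.26, and Dnase1l3, a secreted nuclease, was one that fell (-0.65 ± 0.10). With library totals 8 endothelial genes rose and 0 fell, with a median of 0.74, and Dnase1l3 did not pass (-0.18, adjusted p = 0.0705). Of 19 interferon-stimulated genes 13 rose and 3 fell (median 0.66), and with library totals 16 rose and 0 fell (median 1.13).

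Fibrosis genes rose as one block. All 16 extracellular matrix genes were higher (median 2.61) and kept this at all 6 ZTs. Col1a1, the alpha-1 chain of collagen I, went from 2.40, 5.17 and 11.3 CPM to 13.2, 69 and 235 CPM (3.81 ± 0.20). Timp1, an inhibitor of matrix metalloproteinases, was at 0 in at least one NC library with a median of 0.359 CPM and at 11.3, 20.2 and 54.8 CPM on cdHFD. Stellate cell and fibroblast genes rose in 10 of 11 (median 1.03), led by Acta2, the actin of activated stellate cells (2.30 ± 0.27), and Ecm1 fell. In this list 10 rose and 0 fell with library totals. Summed stellate markers ran from 150 to 381 CPM (median 288) on NC and from 422 to 703 CPM (median 571) on cdHFD, and the part of stellate cell number was not tested. Of 15 tested ductular and injury genes 13 rose, among them Krt8 (1.59 ± 0.08), a hepatocyte keratin that rises on injury, while Krt19, a cholangiocyte keratin, gave 0.67 ± 0.40 and did not pass.

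Acute phase genes divided. Of 20 genes 7 rose and 9 fell, with a median of -0.05, and with library totals 9 rose and 8 fell. Lcn2, lipocalin-2, ranged from 11.9 to 379 CPM on NC with a median of 19.2, and from 278 to 1606 CPM with a median of 682 on cdHFD, the 379 CPM being one ZT22 library. Its log2 fold change was 4.71 ± 0.32. Fibrinogen chains went the other way, with Fga at -1.27 ± 0.10, Fgb at -1.3 ± 0.09 and Fgg at -1.33 ± 0.09.

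Proliferation genes rose in 25 of 26 members with a median of 2.26. Ccnb1, the mitotic cyclin B1, went from 0.168, 0.777 and 3.20 CPM to 2.75, 9.07 and 22.4 CPM (3.41 ± 0.23) and Cdk1, its kinase, rose by 2.33 ± 0.18. Members for the start of replication rose less, Mcm7 of the replicative helicase by 0.60 ± 0.11 and Pcna, the sliding clamp, by 0.82 ± 0.11. Tk1, thymidine kinase, was the one member that fell (-0.68 ± 0.10), and Cdkn1a, the inhibitor p21, rose with the rest (1.47 ± 0.18).

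These level changes were read again at each ZT. Called genes numbered between 2319 (ZT14) and 2992 (ZT10) higher and between 2030 (ZT14) and 2806 (ZT10) lower, with 4 libraries per diet at each time. Of the 5031 higher genes 3905 (25.1% of all tested) had the same sign at all 6 ZTs, and of the 4600 lower genes 3398 (21.9%). Called at every ZT were 1125 higher (7.24%) and 1025 lower (6.59%) genes, and 806 (5.18%) and 725 (4.66%) had no overlap between the diets at any ZT. Mmp12, Gpnmb, Trem2, Lgals3, Apoa4 and Cidec belonged to the last group on the higher side, and Tm7sf2, Sqle, Msmo1, Hmgcs1, Gnmt, Slc10a1 and Ces2a on the lower. The values by time of 6 such genes are plotted.

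**Figure D2:**
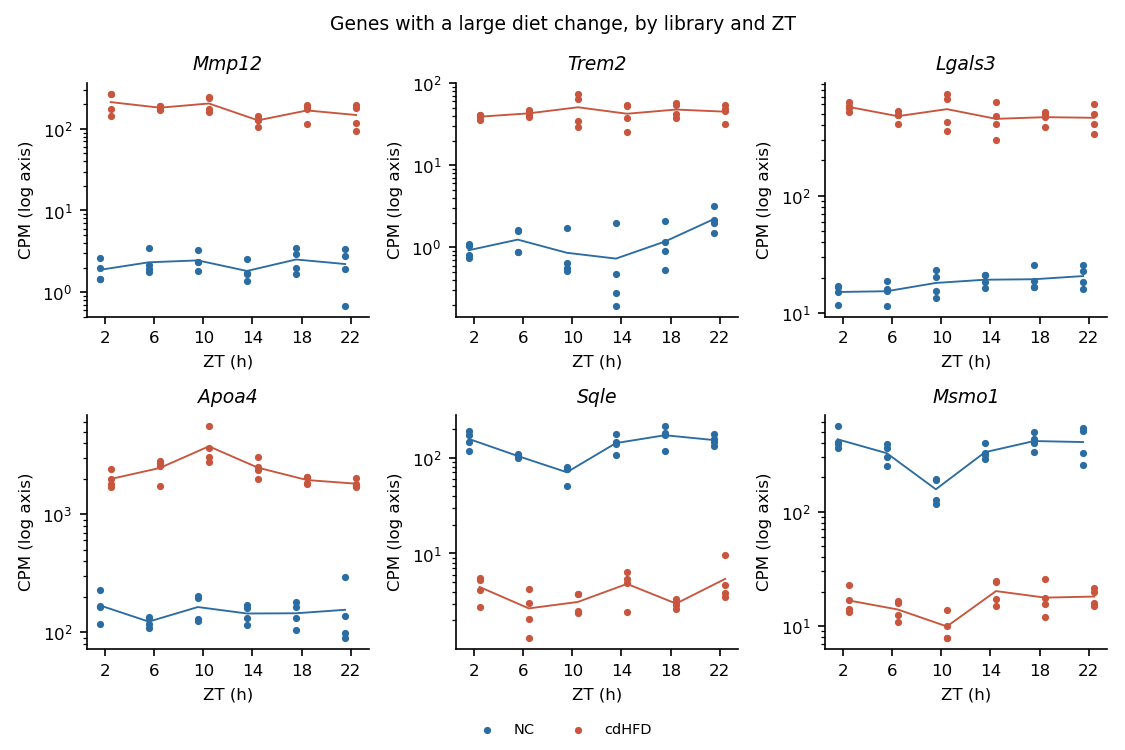
CPM (y axis, log scale) against ZT (x axis, hours) of Mmp12, Trem2, Lgals3, Apoa4, Sqle and Msmo1 in each Hep-Bmal1KO library, points coloured by diet and lines joining the means of 4 libraries. At each ZT all 4 cdHFD points lie above the NC points in the first 4 genes and below them in Sqle and Msmo1.

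A diet effect that differed between times was called for 159 genes (1.02%, test of diet by ZT), of which 113 also had a level call and 61 kept one sign at all 6 ZTs. At an unadjusted p under 0.05 there were 2564. DESeq2 called 744, and leaving out the 12 libraries of one replicate number gave between 13 and 38, so the size of this set is uncertain. Replicates 1 and 2 were male and 3 and 4 female in these groups, except in cdHFD at ZT2, where this was reversed. Leaving out a replicate number therefore also unbalances the sexes. Egr1, an immediate-early transcription factor that responds to feeding and insulin, had the smallest p (adjusted p = 1.8e-06). At ZT6 it stood at 41.8, 76.7, 53.9 and 32.9 CPM on NC and at 16.1, 23.2, 7.07 and 14.7 CPM on cdHFD, and at ZT18 at 2.00, 0.211, 0.723 and 1.33 CPM on NC and 13.6, 18, 16.7 and 22.8 CPM on cdHFD. The diets did not overlap at either time, but in opposite directions, with log2 fold changes of -1.74 ± 0.37 at ZT6 and 4.05 ± 0.53 at ZT18. The ZT6 peak of NC had no counterpart on cdHFD, where Egr1 lay between 7.07 and 24.9 CPM at all times.

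The same test called Lrrc59, a ribosome-binding protein of the endoplasmic reticulum, with a log2 fold change of 1.32 ± 0.11 at ZT10 and -0.08 ± 0.11 at ZT18 (adjusted p = 1.04e-05). H1f2, a linker histone made in S phase, rose by 2.42 ± 0.24 at ZT6 and gave 0.31 ± 0.22 at ZT14 (adjusted p = 0.00203). Zfand5, a zinc-finger protein that binds ubiquitin, was higher at ZT18 (1.10 ± 0.16) and not called at ZT6 (-0.35 ± 0.16), and Mgat2, a Golgi glycosyltransferase, was higher at ZT6 (0.51 ± 0.12) and lower at ZT18 (-0.46 ± 0.12). By list, 6 of 20 sterol synthesis genes and 7 of 37 genes that respond to systemic cues were among the 159 (1.02% of all genes).

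Daily rhythms were called with 3 methods, and a gene counted as rhythmic in a diet when at least one gave an unadjusted p under 0.01 (cosinor and JTK on variance-stabilised counts, and a cosine and sine term in edgeR). On NC 1728 genes (11.1%) were rhythmic and on cdHFD 1597 (10.3%). Both diets shared 331 (2.13% of those tested, 19.2% of the NC set and 20.7% of the cdHFD set), 1397 (8.99%) were called on NC alone, 1266 (8.14%) on cdHFD alone and 12554 (80.7%) on neither. Being called on one diet alone is a pair of separate calls and not a difference, and a direct test of diet by rhythm called 141 genes (0.907%), 61 of them NC only, 34 cdHFD only, 43 in both and 3 in neither. At an unadjusted p under 0.05 that test gave 2196. DESeq2 called 344, and without the libraries of one replicate number the count was between 3 and 17. For the genes of this test that are named below, 285 results under an alternative kept the call and 160 lost it.

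Fitted amplitudes were lower on cdHFD in the median, and peaks gathered at other hours. The amplitude, the height of the fitted peak over the daily mean on the log2-like variance-stabilised scale, had a median of 0.324 among NC rhythms and 0.279 among cdHFD rhythms. Of the 2994 genes rhythmic in at least one diet, 460 (15.4%) had a lower amplitude on cdHFD and 129 (4.31%) a higher one at an unadjusted p under 0.05. After adjustment 1 and 0 remained, so these amplitude counts describe a set and single out almost no gene. On NC the peaks gathered at ZT4 to 8 (417 genes) and ZT16 to 20 (408). The NC bins ZT8 to 12 and ZT20 to 24 held 304 and 301. On cdHFD the fullest bin was ZT8 to 12 (375). The cdHFD bins ZT12 to 16 (290), ZT20 to 24 (285) and ZT0 to 4 (278) were close to each other. ZT4 to 8 held 153 cdHFD peaks and ZT16 to 20 held 216. The fewest NC peaks fell at ZT0 to 4 (137).

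**Figure D3:**
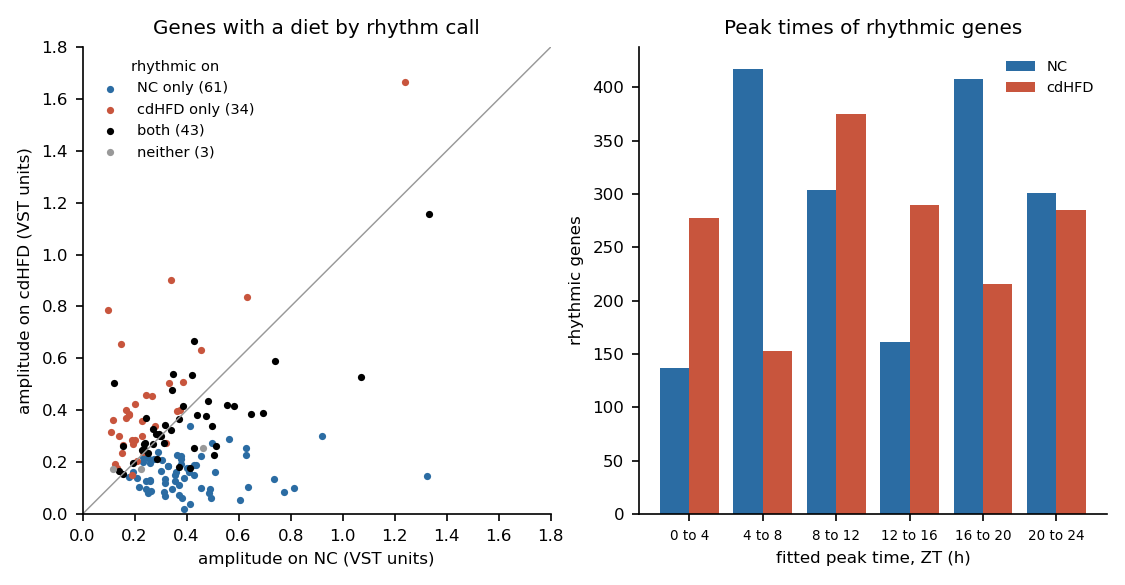
Left, amplitude on NC (x axis) against amplitude on cdHFD (y axis, both variance-stabilised log2 scale) of the 141 genes called by the test of diet by rhythm, coloured by whether the gene was rhythmic on NC only (61), cdHFD only (34), both (43) or neither (3). Right, number of rhythmic genes (y axis) by fitted peak time in 4 h bins (x axis, ZT) for each diet, with NC highest at 4 to 8 h (417 genes) and cdHFD highest at 8 to 12 h (375).

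Among rhythms lost on cdHFD, Egr1 and sterol synthesis stood first. Egr1 had an amplitude of 1.32 on NC, with a fitted peak at ZT5.13, and 0.146 on cdHFD (difference -1.18 ± 0.36, diet by rhythm adjusted p = 0.00626). Hmgcs1, which makes HMG-CoA for the mevalonate pathway (ENSMUSG00000093930; chromosome 13, 119690351 to 119708260), was at 1245, 1020, 1403 and 1427 CPM at ZT2 and 446, 626, 639 and 619 CPM at ZT14 on NC. On cdHFD it was at 63.6, 47.8, 47.7 and 48.8 CPM at ZT2 and at 55.6, 39, 56 and 49.9 CPM at ZT14. The NC times did not overlap and the cdHFD times did. ZT2 and ZT14 were the highest and lowest times on NC, whereas ZT10 and ZT6 were so on cdHFD. These times were thus picked on NC, which favours a separation there. The amplitude of Hmgcs1 went from 0.488 to 0.0965 (difference -0.39 ± 0.12, adjusted p = 0.019).

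The sterol synthesis list as a whole had 14 genes rhythmic on NC only, 3 on both diets (Fdps and Dhcr7 among them), 1 on cdHFD only and 2 in neither (Tm7sf2 and Ebp). Against this stand 8.99%, 2.13% and 8.14% of all genes. The test of diet by rhythm called 5 of the 20: Hsd17b7 (adjusted p = 0.00767), Hmgcs1 (0.019), Dhcr7 (0.019), Lss (0.0257) and Fdps (0.0259). These calls were not stable, since 0 were made in males, 1 in females and 0 to 1 when one replicate number was left out. The median amplitude was 0.433 on NC and 0.192 on cdHFD. On NC all 20 stood above their own mean at ZT2 and none at ZT10, the list medians being 0.35 and -0.74. On cdHFD 17 stood above their mean at ZT14 (median 0.24) and 5 at ZT10 (median -0.17). Hsd17b7, a sterol ketoreductase, had its fitted peak at ZT22.3 on NC and ZT11.0 on cdHFD. Counts at the cdHFD level are low for several of these genes, so a rhythm of the NC size is harder to see there. The variance-stabilised scale also compresses differences at low counts, and its part in the lower amplitude was not tested. Without the discordant libraries 12 members were NC only (8.36% of all genes), 3 both (1.99%) and 1 cdHFD only (8.17%), and 5 again passed the test of diet by rhythm. Msmo1 was then rhythmic on both diets, Acat2 and Idi1 on neither, and Fdps did not pass (adjusted p = 0.0583).

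**Figure D4:**
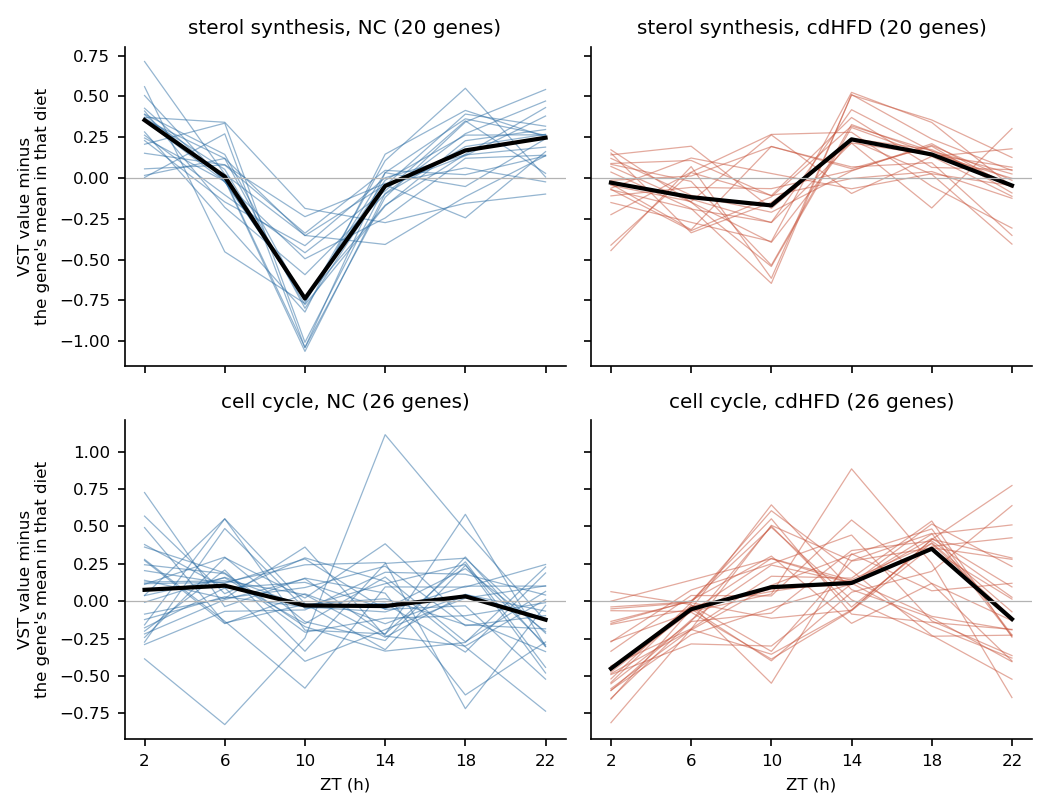
Variance-stabilised expression minus each gene's own mean in that diet (y axis, log2-like scale) against ZT (x axis, hours) for the 20 sterol synthesis and 26 cell cycle genes on NC and cdHFD, one thin line per gene and a black line for the list median. The sterol median falls to -0.74 at ZT10 on NC, and the cell cycle median on cdHFD runs from -0.45 at ZT2 to 0.35 at ZT18.

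Other losses were scattered over functions. Wdr6, a WD-repeat protein of tRNA modification, had amplitudes of 0.638 and 0.105 (adjusted p = 0.019), and Lrrc59 of 0.371 and 0.110 (adjusted p = 0.019). S100a8 and S100a9 were rhythmic on NC only, with amplitudes of 0.776 and 0.0864 for S100a8 and 0.734 and 0.134 for S100a9 (adjusted p = 0.0433 and 0.0381). Of 11 general macrophage genes 6 were rhythmic on NC only (8.99% of all genes) and 0 on cdHFD only (8.14%), with median amplitudes of 0.391 and 0.125, but none passed the test of diet by rhythm. Which cells carried these rhythms was not tested.

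Cell cycle genes were called rhythmic mostly on cdHFD. Of 26 cell cycle genes 18 were rhythmic on cdHFD only, 1 on both (Tk1) and 1 on NC only (Cdkn1a), against 8.14%, 2.13% and 8.99% of all genes. The 18 became 9 with JTK alone, 9 with cosinor alone and 10 with an adjusted p, and between 10 and 16 when one replicate number was left out. Amplitude was higher on cdHFD in 22 of 26, the median going from 0.187 to 0.380. Top2a, the topoisomerase of dividing cells, was at 5.98, 8.88, 4.27 and 2.45 CPM at ZT2 and 14.2, 11.7, 21.2 and 17.3 CPM at ZT10 on cdHFD, and at 3.80, 2.63, 1.85 and 2.04 CPM and 1.66, 1.5, 2.32 and 1.96 CPM on NC. The times did not overlap on cdHFD and did on NC. They were the lowest and highest times of Top2a on cdHFD and so were picked on that diet, which favours a separation there. On cdHFD 2 of the 26 stood above their mean at ZT2 and 19 at ZT18, as the plot of list profiles shows. The difference itself was weak, since only Mcm3, another helicase subunit, passed the test of diet by rhythm (adjusted p = 0.0491), and none did without the discordant libraries, where 15 were cdHFD only and 3 in both. NC levels of several members lay near 1 CPM, where a rhythm is hard to detect. Differences at such levels are compressed on the variance-stabilised scale, and the part of this in the lower NC amplitudes was not tested.

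Acacb, the acetyl-CoA carboxylase that restrains mitochondrial fatty acid import, was rhythmic on cdHFD only (amplitude 0.456 on NC and 0.633 on cdHFD, fitted peaks at ZT1.45 and ZT14.7, adjusted p = 0.0156). Fasn had amplitudes of 0.141 and 0.761 but did not pass (adjusted p = 0.0816). Of 17 lipogenesis genes 6 were cdHFD only, 4 NC only and 2 both, beside 8.14%, 8.99% and 2.13% of all genes. Without the discordant libraries the order turned, with 2 cdHFD only, 5 NC only and 2 both, and the median amplitude difference went from 0.01 to -0.01. Of 9 genes of sterol uptake and control 5 were cdHFD only and 2 NC only, and without the discordant libraries 3 were cdHFD only, none NC only and 1 both, the median amplitude difference falling from 0.13 to 0.03. Abhd17c, a depalmitoylating enzyme, went from 0.168 to 0.372 (adjusted p = 0.00767), and Nnmt, which methylates nicotinamide, from 0.341 to 0.904 (adjusted p = 0.0259). Of 20 acute phase genes 8 were cdHFD only (8.14% of all genes) and 2 NC only (8.99%), all 3 fibrinogen chains being among the 8.

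Genes rhythmic on both diets tended to peak earlier on cdHFD. Of 331, 213 had an earlier fitted peak and 118 a later one, with a median difference of -1.02 h, and 139 stayed within 2 h. At an unadjusted p under 0.05, 101 (30.5%) were earlier and 40 (12.1%) later, and 82 and 32 of these kept an adjusted p under 0.05 over the 331. Where an adjusted p was also asked of each rhythm, 108 genes were rhythmic on both diets, and 29 of these were earlier and 3 later. Amplitude was lower on cdHFD in 239 and higher in 92, with a median difference of -0.07.

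Fh1, the fumarase of the tricarboxylic acid cycle (ENSMUSG00000026526; chromosome 1, 175601378 to 175625635), gave the smallest p of diet by rhythm among them (adjusted p = 0.00767). On NC it was at 498, 312, 400 and 426 CPM at ZT2, 214, 214, 215 and 225 CPM at ZT10 and 323, 349, 267 and 271 CPM at ZT14, and on cdHFD at 112, 138, 151 and 139 CPM, 171, 166, 143 and 155 CPM and 196, 172, 224 and 202 CPM. ZT2 was the highest time on NC and ZT14 on cdHFD. The fitted peak moved from ZT22.5 to ZT14.4, by -8.16 ± 1.15 h, at amplitudes of 0.298 and 0.300. Acly moved in the same way, from ZT23.9 to ZT16.0 (-7.94 ± 1.3 h), and Acmsd, which steers tryptophan breakdown away from NAD, from ZT22.2 to ZT16.7 (-5.50 ± 1.07 h). Gclc, the catalytic subunit of glutathione synthesis, moved from ZT8.03 to ZT23.4 (-8.65 ± 1.35 h), Gabarapl1, an autophagosome protein, from ZT7.41 to ZT22.7 (-8.76 ± 1.56 h), and Tfrc, the transferrin receptor, from ZT21.4 to ZT12.8 (-8.61 ± 1.44 h). A shift near 12 h has no certain sign on a 24 h circle, and those over 8 h are to be read with that in mind.

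Later peaks were fewer. Lcn2 moved from ZT22.6 to ZT10.2 (11.6 ± 2.41 h), where the NC peak rested on 379 and 90.7 CPM in 2 ZT22 libraries beside 14.2 and 17.3 CPM in the other libraries. On cdHFD its ZT10 libraries were at 1425, 1606, 1136 and 1092 CPM, above every library of the other times. Sbds, a ribosome maturation factor, moved from ZT12.0 to ZT22.9 (10.9 ± 1.44 h).

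Cues from outside the hepatocyte can be followed through genes known to answer them. Of 37 such genes 9 were rhythmic on NC only, 8 on cdHFD only and 10 on both, beside 8.99%, 8.14% and 2.13% of all genes. Among 12 heat shock and cold-inducible genes, which track body temperature, 5 were rhythmic on both diets. All 5 had an earlier fitted peak on cdHFD, with a median difference of -5.19 h, and 3 of the 12 passed the test of diet by rhythm (0.907% of all genes). Hsp90aa1 moved from ZT19.9 to ZT14.4 (-5.49 ± 1.21 h, diet by rhythm adjusted p = 0.0257), Hsp90ab1 from ZT19.4 to ZT14.2 (-5.19 ± 1.08 h, adjusted p = 0.0407) and Hspa8 from ZT17.0 to ZT10.8 (-6.20 ± 1.5 h, adjusted p = 0.0451). Without the discordant libraries the same 5 were rhythmic on both diets and earlier on cdHFD, but 1 of the 12 passed: Hsp90aa1 did (adjusted p = 0.0408) while Hsp90ab1 (0.0644) and Hspa8 (0.0626) did not. Cirbp, a cold-inducible RNA-binding protein, was rhythmic on cdHFD only, at 3.07, 4.68, 1.89 and 2.20 CPM at ZT14 and 15.2, 10.2, 36.1 and 13.5 CPM at ZT2, with no overlap of these times. It was called for diet by ZT (adjusted p = 0.039) and not for diet by rhythm (adjusted p = 0.101).

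Glucocorticoid and feeding genes moved less uniformly. Tsc22d3, the glucocorticoid-induced leucine zipper, peaked at ZT15.2 on NC and ZT11.7 on cdHFD (-3.54 h) without passing the test of diet by rhythm (adjusted p = 0.27), and Per1, which also answers glucocorticoids, kept its peak at ZT10.3 and ZT10.1. G6pc, glucose-6-phosphatase, moved from ZT21.7 to ZT15.6 (-6.12 ± 1.59 h, adjusted p = 0.0475). Igfbp1, which insulin represses, rose by 3.17 ± 0.33 in level. Cpt1a peaked at ZT6.48 on NC and ZT6.47 on cdHFD.

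Clock genes kept a residual rhythm in both diets, and what the diet did to it rested on the discordant libraries. Of 12 core clock genes 8 were lower and 2 higher on cdHFD (median -0.40), but with library totals 3 were lower and 3 higher (median 0.07). Cry1 (-0.95 ± 0.14) and Cry2 (-0.66 ± 0.07), the cryptochrome repressors, fell, and the repressor Nr1d2 rose by 0.73 ± 0.22. Of 27 clock and clock output genes 12 were rhythmic on both diets, 5 on cdHFD only and none on NC only, and 0 passed edgeR's test of diet by rhythm.

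In the 2 discordant NC libraries Nr1d1, the repressor REV-ERB alpha, stood at 85.6 CPM at ZT6 and 52.8 CPM at ZT10. The other NC libraries were at 14.2, 10.8 and 16.8 CPM and at 6.83, 8.97 and 10.6 CPM at the same times. Dbp, an output transcription factor, stood at 149 and 373 CPM there, beside 10.4, 14.5 and 16.7 CPM and 24.4, 38.5 and 43.4 CPM. Arntl was at 1.23 and 0.258 CPM, below the 5.30 to 11.3 CPM of the other NC libraries at these times. Both were thus the highest or lowest of their groups in the 3 genes, which belong to the clock genes by which they were set apart. The discordant cdHFD library did not stand apart in Nr1d1, at 3.76 CPM beside 3.97, 3.42 and 3.99 CPM.

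Without the 3 libraries 4 of the 27 passed (background 1.18%): Arntl (adjusted p = 0.0198), Tef (0.00817), Usp2 (0.0379) and Per3 (0.0396). These libraries were set apart by clock gene expression itself, so the 4 calls depend on that choice and are no independent test. In all 4 the amplitude was higher on cdHFD. It went from 0.215 to 0.553 in Arntl, from 0.188 to 0.613 in Tef, a sister factor of Dbp, from 0.243 to 0.943 in Per3 and from 0.629 to 0.997 in Usp2, a ubiquitin protease. With all libraries the same pairs were 0.397 and 0.559, 0.323 and 0.622, 0.523 and 0.940, and 0.736 and 1.01. Amplitude was higher on cdHFD in 20 of 27 genes without the discordant libraries and in 15 of 27 with them, and the median amplitudes were 0.219 and 0.474 without them and 0.348 and 0.489 with them. Nr1d1 was close in both diets either way (0.992 and 1.14 without, 1.35 and 1.14 with). On cdHFD Tef had its highest mean at ZT10, at 44.6, 46.9, 44.7 and 43.4 CPM, and its lowest at ZT22, at 17.8, 22.2, 14.5 and 16.7 CPM, with no overlap. These amplitudes are of whole liver, which also holds cells other than hepatocytes that the deletion did not target.

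**Figure D5:**
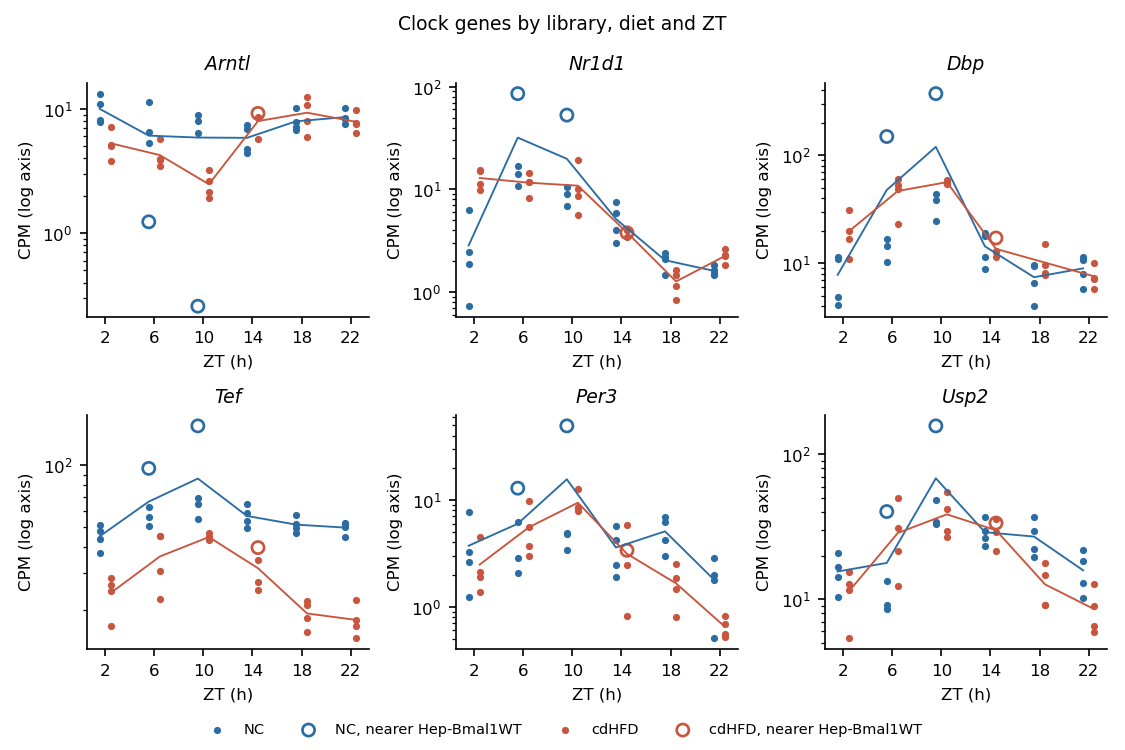
CPM (y axis, log scale) against ZT (x axis, hours) of Arntl, Nr1d1, Dbp, Tef, Per3 and Usp2 in each Hep-Bmal1KO library, coloured by diet, with lines joining the means of 4 libraries and open circles for the 3 discordant libraries. The open NC circles at ZT6 and ZT10 lie above their group for Nr1d1 (85.6 and 52.8 CPM) and Dbp (149 and 373 CPM).

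Sex altered the diet effect for 449 genes (2.89%, test of diet by sex), and for 153 to 246 when one replicate number was left out. Without the cdHFD library labelled female that had neither Xist nor Y-linked RNA 407 genes were called. These were led by sex-biased P450 genes whose bias shrank on cdHFD. Cyp4a12a, a male-type fatty acid hydroxylase, ran from 130 to 292 CPM in NC males and from 0.963 to 17.9 CPM in cdHFD males, while females stayed between 0.817 and 2.48 CPM on NC and between 0.144 and 1.64 CPM on cdHFD. Males of the 2 diets did not overlap and females did. The log2 fold change was -6.11 in males and -0.77 in females (difference -5.31 ± 0.51), and the difference was -5.35 without the library that lacked a sex signal. Cyp2b9, a female-type gene, went from 86.9 to 331 CPM in NC females to 27.4 to 62.5 CPM in cdHFD females, and from a median of 1.57 to 5.33 CPM in males (difference 3.97 ± 0.35).

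The diet effect was set against that in Hep-Bmal1WT livers, where 8657 genes were called, by a test of diet by genotype. It called 118 genes (0.759%) with a higher and 222 (1.43%) with a lower log2 fold change in Hep-Bmal1KO, and 279 and 510 without the discordant libraries of both genotypes. Leaving out one replicate number gave 14 to 88 and 52 to 167. Sterol synthesis lay in the second group: all 20 members had the lower value in Hep-Bmal1KO and 12 passed the test (7 to 11 when one replicate number was left out), with medians of -3.25 in Hep-Bmal1KO and -2.66 in Hep-Bmal1WT, the median difference of all genes being 0.01. Msmo1 had -4.37 ± 0.11 in Hep-Bmal1KO and -3.43 ± 0.11 in Hep-Bmal1WT (difference -0.93 ± 0.15). Fdft1, squalene synthase, had -3.21 ± 0.09 and -2.31 ± 0.10 (difference -0.90 ± 0.13). With CPM scaled over all 96 libraries, mean Msmo1 on NC was 336 in Hep-Bmal1KO and 187 in Hep-Bmal1WT, and on cdHFD 15.8 and 17.1. Mean Fdft1 was 346 and 221 CPM on NC, and 36.2 and 43.9 CPM on cdHFD. In both genes the genotypes lay further apart on NC than on cdHFD. On the other side Gpnmb had 6.34 ± 0.18 and 5.17 ± 0.16 (difference 1.17 ± 0.25), and Lgals3 4.79 ± 0.10 and 4.20 ± 0.09 (difference 0.59 ± 0.12). Mmp12 (6.29 and 6.12) and Trem2 (5.21 and 4.71) did not pass. A change of rhythm by diet that differed between genotypes was called for 14 genes (0.09%), Tef among them (adjusted p = 0.00862), and without the discordant libraries of both genotypes for 61. It was called for 1 to 17 when one replicate number was left out, and for 7 without the cdHFD library that lacked a sex signal.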

How the data were processed

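Liver RNA of 96 mice was sequenced by BRB-seq with 3′ tags, and the 48 Hep-Bmal1KO libraries were compared between diets. The deposited table holds raw gene counts that the authors made before any normalization. Per the labels' processing notes STAR, HTSeq, featureCounts and DESeq2 were named with the mm10 build, without versions or a statement of which counter made this table. Reads that were not aligned (14.8% to 26.3%) and without a feature (6.52% to 11.3%) stayed out of library sizes. Library totals of 4243905 to 9718615 limit precision at a few CPM, and counting error of PCR copies is not covered.

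Genes with a summed count of at least 100 over all libraries were tested. Diet was tested with edgeR 4.0.16 (TMM, quasi-likelihood, ZT as factor, Benjamini-Hochberg adjustment) in R 4.3.3, with interactions for ZT, a 24 h cosine and sine, sex and genotype. Fits used the 48 libraries except for genotype, which used all 96. CPM values are TMM-scaled, and log2 fold changes carry the default prior count of edgeR. A prior count of 2 was used only where CPM values were put on a log2 scale. Cosinor, JTK and amplitude and phase contrasts with delta-method errors used DESeq2 1.42.0 variance-stabilised counts. Nothing states that libraries of one group came from separate litters or cages, and p-values measure the spread between these libraries. The scripts were tested on simulated data.

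Named genes were the 12 of smallest p in each direction whose log2 fold change was 1 or more in size, up to 5 per list and any needed to account for a list, all clock genes, and the 6 or 8 of smallest p in each interaction or rhythm class, with the 5 largest shifts of each sign. Members, gene lists and rules were chosen with earlier results of these data known. Locations are those of RefSeq for GRCm38.p6, matched by gene. Alternatives covered tool, scaling, filter, sex, replicate number, ZT, rhythm method and the doubted libraries, and those without the library that lacked a sex signal were chosen after seeing the data. Some genes are not reported here.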

Additional observations from a re-analysis of the deposited data

Results flagged for a closer look

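Of 144 groups of 4 libraries examined by Dixon's ratio in 12 genes, 12 had a library far from the other 3, where chance flags about 1 group in 20. Nr1d1 stood apart at 85.6 CPM in NC at ZT6 replicate 4 and at 52.8 CPM in NC at ZT10 replicate 3. Dbp did so in the same libraries, at 149 and 373 CPM, and Tef in the second, at 155 CPM. These are the discordant NC libraries of the report. Hmgcs1 was low at 446 CPM in NC at ZT14 replicate 1 and high at 63.6 CPM in cdHFD at ZT2 replicate 1. Acly was high at 572 CPM in NC at ZT18 replicate 3 and at 133 CPM in cdHFD at ZT18 replicate 2. Top2a was low at 0.887 CPM in NC at ZT6 replicate 3 and high at 3.43 CPM in NC at ZT14 replicate 3. Fh1 was at 225 CPM in NC at ZT10 replicate 4, beside 214, 214 and 215 CPM.

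The diet effect differed between times, in edgeR's test of diet by ZT, most firmly for Egr1 (adjusted p = 1.8e-06), Lrrc59 (1.04e-05), Abhd17c (0.000693), Zfand5 (0.000821), Mgat2 (0.00122) and H1f2 (0.00203). It differed between the sexes, as log2 fold change in males minus that in females, for Cyp2u1 (-2.58), Cyp2b9 (3.97), Cyp4a12a (-5.31), the organic anion transporter gene Slc22a27 (3.72), Cyp2a22 (3.59) and Ttc39c (-1.69). It differed between genotypes, as Hep-Bmal1KO minus Hep-Bmal1WT, for the glutathione transferase genes Gstm6 (-1.15) and Gstm3 (-1.85), for Fdft1 (-0.90), Slc22a15 (-1.10), Msmo1 (-0.93) and the collagen gene Col27a1 (2.34). Median Col27a1 went from 9.25 CPM on NC to 2.57 CPM on cdHFD in Hep-Bmal1WT. In Hep-Bmal1KO it went from 1.58 to 2.54 CPM, so the larger change was the fall in Hep-Bmal1WT. The diet effect on rhythm differed between genotypes for Clpx (adjusted p = 0.00862), Tef (0.00862), Cyp3a57 (0.0101), Tubb2a (0.0115), Ppp1r3c (0.0115) and Cdkn1a (0.0115). Cyp3a57 had a median of 0 CPM on NC in both genotypes, and of 0.433 (Hep-Bmal1WT) and 0.596 CPM (Hep-Bmal1KO) on cdHFD. Its call therefore rests on few counts.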

How the results depend on the processing

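Level counts kept to within 1.5 times the reported values under DESeq2, its size factors, both filters, sex as a covariate, each sex alone, each ZT or replicate number left out and without the doubted libraries. Library totals gave 10132 higher and 1656 lower genes, and a fold threshold gave 2506 and 1133. All 20 sterol synthesis genes stayed lower and 25 of 26 cell cycle genes higher when a replicate number was left out. Interaction and rhythm counts are the limit of these data, since they moved with tool, method and samples, and at levels near 1 CPM a rhythm is hard to detect. No paired analysis was possible because replicate numbers were given in accession order and name no shared animal, litter or day.

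Diet by ZT, 159 genes as reported, gave 744 with DESeq2, 246 with at least 10 counts in 12 libraries, 248 with no filter, 334 with sex as a covariate, 791 in males, 69 in females and 13 to 38 when a replicate number was left out. Diet by rhythm, 141 as reported, gave 344, 226 (no filter), 223 (sex), 58 (males), 44 (females) and 3 to 17. Its sterol synthesis members, 5 as reported, were 9 with DESeq2, 0 in males, 1 in females and 0 to 1. Its single cell cycle member became 4 with DESeq2, 3 with no filter, 2 with sex as a covariate and 0 with library totals, in females, without the discordant libraries, without the library that lacked a sex signal and in each fit without a replicate number (0 to 0).

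Genes called at all 6 ZTs were 1427 to 1682 without a replicate number. Rhythmic genes on NC were 1049 with JTK alone and 728 with adjusted p, on cdHFD 983, 654 and 1019 to 1289, and on both 148, 108, 181 with cosinor alone and 157 to 201. The amplitude and phase counts that follow are over the genes rhythmic under each setting, and so over the 108 for phase with adjusted p. Lower amplitude was called in 1 gene with adjusted p and 282 to 364, higher amplitude in 0 and 72 to 101, an earlier phase in 29, 65 (JTK) and 48 to 65, and a later phase in 3, 12 (JTK), 18 (cosinor) and 12 to 33. Sterol synthesis genes rhythmic on NC only were 8 to 14, and cell cycle genes on cdHFD only 9 (JTK), 9 (cosinor), 10 (adjusted p) and 10 to 16. Diet by sex gave 153 to 246. Diet by genotype gave 279 higher and 510 lower genes without the discordant libraries and 14 to 88 and 52 to 167 without a replicate number, with 7 to 11 sterol synthesis members. Diet by genotype rhythm gave 8 with DESeq2 size factors, 61 without the discordant libraries, 7 without the library that lacked a sex signal and 1 to 17. The cause of these differences was not tested, and alternatives that leave out libraries change the number of samples and can change the sex balance.

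Among the named genes, diet by rhythm calls held in 285 results under an alternative and were lost in 160. Those of diet by genotype rhythm held in 26 and were lost in 16. For single genes, 4559 fold changes under an alternative kept their sign and call, 108 lost and 21 gained a call. The sign turned with library totals for Abcg8 (0.037), Abcg5 (0.19), Apob (0.025), Cideb (0.17), Cpt2 (0.073), Rps2 (0.24), Rora (0.32), Clock (0.00099), Arntl (0.14), Per2 (0.15), Nr1d1 (0.27), Noct (0.28), Bhlhe40 (0.28), Usp2 (0.062), Fbxl21 (0.10) and Ciart (0.33). It also turned for Nr1d1 in males (0.50), without replicate 4 (0.14; range without a replicate number -0.43 to 0.14), the discordant libraries (0.32) or ZT6 (0.12), for Ciart in males (1.17), without replicate 3 (0.28) or 4 (0.18; range -0.45 to 0.28), the discordant libraries (0.71) or ZT10 (0.34), for Nampt in females (-0.028) and for Noct in males (0.020). Dbp turned with the stricter filter (-0.0013), in females (-0.29), without replicate 1 (-0.13) or 2 (-0.067; range -0.13 to 0.32), without ZT2 (-0.21) or ZT18 (-0.067) and with cosine and sine terms (-0.087).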

Other observations

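Several genes without a place in the lists also passed the test of diet by rhythm in Hep-Bmal1KO livers. Slc17a8, a vesicular glutamate transporter gene, had amplitudes of 0.0989 on NC and 0.787 on cdHFD at similar levels (medians of 4.57 and 5.18 CPM), with a fitted cdHFD peak at ZT18.0 (adjusted p = 0.00781). Spc24, a kinetochore subunit, had amplitudes of 0.268 and 0.457 and peaks at ZT4.85 and ZT14.0 (adjusted p = 0.0251), although its level did not pass (log2 fold change -0.21, adjusted p = 0.23). Rsrp1, an arginine- and serine-rich protein gene, had amplitudes of 0.180 and 0.386 (adjusted p = 0.0168). Acbd4, an acyl-CoA binding protein gene, and Zfp707, a zinc-finger gene, were rhythmic on NC only with adjusted p = 0.0238 each, and both were lower on cdHFD, by -1.17 and -1.40 on the log2 scale. Klk1, Fcgbp and Cyp21a1 were called as well, but their medians lay at 0 to 0.762 CPM, so their rhythms rest on few counts.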
